A study of Mus musculus with 6 samples.

Results

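The genes described here encode the complement proteins, the clotting and fibrinolysis factors and their inhibitors in mouse liver. They were chosen by a list of 44 gene symbols, and 40 of them were named by a probe set of the array, out of 30727 genes named in the whole data set. Of these 40, 16 of 18 listed were complement genes, 14 of 15 were clotting and fibrinolysis genes and 10 of 11 were inhibitors. C3, Cfd and Cpb2 were not analysed here. Klkb1 was left out of the 40, because its probe set also carries the name of another gene. Each gene was read from its brightest probe set, that with the highest mean over all arrays.

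Liver RNA was measured on 6 Affymetrix arrays, each from a male mouse aged 8 weeks. The HFD-inulin group held 3 arrays, from offspring of mothers treated with inulin, a fermentable plant fibre. The title of this group also carries HFD, the abbreviation of the high-fat diet group, but its source label names only the inulin. The HFD group held the other 3 arrays, from offspring of mothers on a high-fat diet. The labels used here give no strain, no litter or mother for a mouse, no diet composition and no diet for the offspring. The p-values therefore measure only the spread between these samples, which may be shared within a litter or technical. With 3 arrays in each group, their number limits the precision, and the smallest p that an exact permutation test can give is 0.1. In bulk liver, fewer cells of a type and less RNA per cell cannot be told apart.

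Most proteins of plasma complement and coagulation are made by hepatocytes and secreted into the blood. Complement is a cascade of proteases: lectins or antibodies on a surface activate C1, the MASP proteases, C2 and C4, and the terminal proteins C5 to C9 then build a pore in the target membrane. Clotting is a second cascade that ends with thrombin cutting fibrinogen into fibrin, and plasmin later dissolves the clot. Both are held in check by plasma inhibitors, many of them serpins, and fibrinogen is a classical acute-phase protein that is made in larger amounts in inflammation.

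Neither complement, clotting nor inhibitor genes differed between HFD-inulin and HFD livers after adjustment. In limma's moderated test on the log2 signals, adjusted by Benjamini-Hochberg across the 65956 probe sets of the array, 0 of the 40 genes had an adjusted p under 0.05, and the smallest among them was 0.902. The background was the same: 0% of all probe sets passed. At an unadjusted p under 0.05, 1 of the 40 genes (2.5%) differed, the clotting cofactor F5, which was lower in HFD-inulin livers. Of all probe sets, 5.15% reached that level, 2.52% higher and 2.64% lower in HFD-inulin, so the share among the 40 genes was not above the background. The measured genes were split evenly in sign, with 21 higher and 19 lower in HFD-inulin. Their median log2 difference was 0.01, against -0.02 over all probe sets. By kind, the medians were 0.04 for complement genes (9 higher, 7 lower), -0.01 for clotting genes (6 higher, 8 lower) and 0.07 for inhibitors (6 higher, 4 lower). The absolute log2 difference was under 0.1 for 12 genes and at least 0.5 for only 2, Mbl2 and Serpina10. The plot of differences with their intervals shows these values for every gene.

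**Figure D1:**
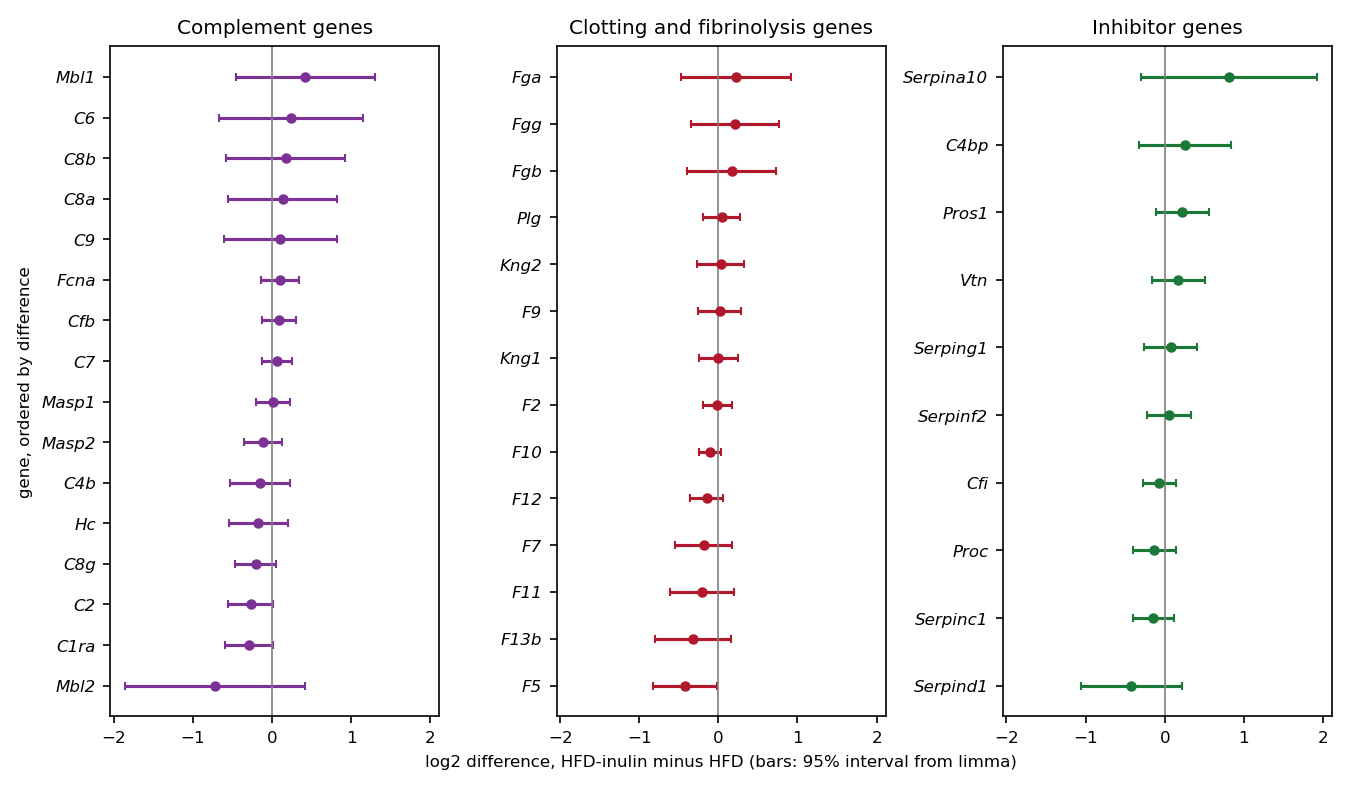
Log2 difference, HFD-inulin minus HFD, for each of the 40 measured genes (points), with its 95% interval from limma (bars), in panels for complement, clotting and inhibitor genes. The interval of F5, from -0.83 to -0.02, is the only one of the 40 that leaves out 0, and the widest intervals belong to Mbl2, Serpina10, C6 and Mbl1.

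The arrays within the HFD-inulin group differed more from each other than those within the HFD group. The standard deviation was larger in HFD-inulin than in HFD for 35 of 40 genes (87.5%), against 56.0% of all probe sets and 74.6% of the 6087 probe sets at least as bright as the second dimmest of the 40 genes. The median standard deviation of the 40 genes was 0.24 in HFD-inulin and 0.11 in HFD, and it was also 0.24 and 0.11 over those bright probe sets. Those probe sets start at a log2 signal of 4.80, while the median of the 40 genes was 8.24. They are therefore not matched to the 40 genes in brightness, here or in the shares below. HFD-inulin array 2 gave the highest value of the 6 for 19 genes and the lowest for 10, which together make 72.5% of the 40 genes, against 52.6% of the bright probe sets. HFD-inulin array 3 gave the highest value for 5 genes and the lowest for 14, together 47.5% of the genes, against 32.1% of the bright probe sets. It lay inside the range of the HFD arrays for 50% of the 40 genes, against 46.3% of the bright probe sets. For HFD-inulin array 1 these shares were 42.5% and 34.3%, and for HFD-inulin array 2 they were 20% and 26.5%. Values per array are therefore given below for the genes the results turn on.

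The arrays also fall into 2 sets that cross the groups. Probe sets numbered on chromosome Y that share identical values averaged a log2 signal of 1.91, 1.60 and 3.15 on the HFD-inulin arrays (numbers 1 to 3), against 1.34, 3.24 and 2.99 on the HFD arrays. HFD-inulin arrays 1 and 2 and HFD array 1 were therefore low, and HFD-inulin array 3 and HFD arrays 2 and 3 were high. The labels do not record what separates these sets. Differences within each set are given below for the genes with the larger differences. In each set 1 group holds only 1 array, whose own spread cannot be measured and is borrowed from the rest of the fit. A change between the sets therefore cannot be told apart from 1 array lying apart.

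**Figure D2:**
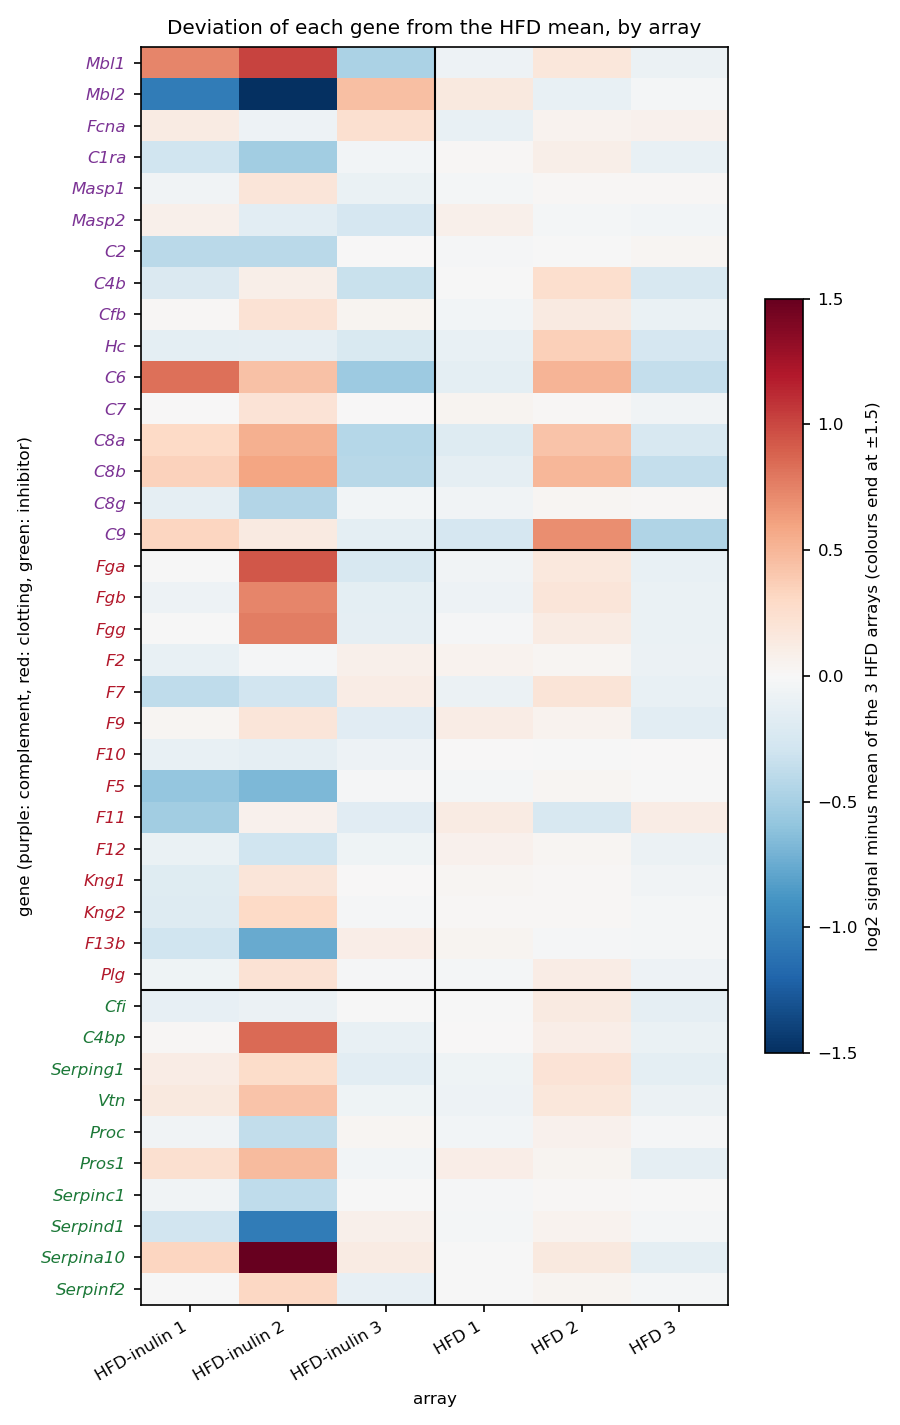
Each row is 1 gene and each column 1 array. Colour gives the log2 signal minus the mean of the 3 HFD arrays, with colours ending at 1.5 in either direction (Mbl2 and Serpina10 in HFD-inulin array 2 lie beyond that). Strong colours in HFD-inulin arrays 1 or 2 include Mbl1, Mbl2, C6, Serpina10, Serpind1, C4bp, F13b, F5 and the fibrinogen genes Fga, Fgb and Fgg, and C9 and C6 are high in HFD array 2.

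Among the complement genes, the largest differences were those of the mannose-binding lectins, and they ran in opposite directions. Mbl1 and Mbl2 encode the mannose-binding lectins A and C, soluble pattern receptors that start the lectin pathway on microbial sugars. Their upstream sequences are shown because the same arrays were far from the rest in both genes but in opposite directions. Each run is the 250 bases before the RefSeq transcription start, written 5′ to 3′ on the gene's strand in build GRCm38.p6. The capitals mark the longest run that both share, 13 bases.
Mbl1 (chr14:41151206-41151455, + strand): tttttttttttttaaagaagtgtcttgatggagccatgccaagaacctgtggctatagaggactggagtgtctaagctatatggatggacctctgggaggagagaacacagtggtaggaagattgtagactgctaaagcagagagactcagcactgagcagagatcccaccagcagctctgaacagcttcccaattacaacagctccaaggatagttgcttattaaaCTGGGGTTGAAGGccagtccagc
Mbl2 (chr19:30232678-30232927, + strand): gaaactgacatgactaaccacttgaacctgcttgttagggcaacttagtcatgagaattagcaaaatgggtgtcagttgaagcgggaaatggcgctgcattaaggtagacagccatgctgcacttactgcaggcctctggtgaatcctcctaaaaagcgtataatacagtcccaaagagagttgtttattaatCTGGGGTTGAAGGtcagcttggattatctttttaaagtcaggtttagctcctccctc
The shared run lies 23 to 11 bases before the start of Mbl1 and 57 to 45 bases before that of Mbl2.

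Mbl1 had log2 signals of 7.60, 7.88 and 6.39 in the HFD-inulin arrays, against 6.79, 7.03 and 6.77 in the HFD arrays. Arrays 1 and 2 of HFD-inulin were above every HFD array and array 3 was below every one. The log2 difference was 0.42 (SE 0.37, 95% interval -0.45 to 1.30, adjusted p = 0.919 in limma). Mbl2 had 6.64, 6.14 and 8.14 in the HFD-inulin arrays, against 7.83, 7.58 and 7.66 in the HFD arrays. Here HFD-inulin arrays 1 and 2 were below every HFD array and array 3 was above every one, the mirror image of Mbl1. The log2 difference was -0.72 (SE 0.47, 95% interval -1.85 to 0.42, adjusted p = 0.905 in limma), and the group means were 6.97 ± 1.04 in HFD-inulin livers and 7.69 ± 0.13 in HFD livers (SD, n = 3 each). Both directions differed between the array sets. The high set holds HFD-inulin array 3 alone of its group, so this cannot be told apart from the place of that array. Within the low arrays Mbl1 was 0.94 higher and Mbl2 differed by -1.44, and within the high arrays the differences were -0.51 for Mbl1 and 0.52 for Mbl2. With the array set as a block they were 0.22 for Mbl1 and -0.46 for Mbl2.

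Ficolin A and the initiating proteases lay closer together. Fcna, a ficolin that recognises acetylated sugars, had 4.87, 4.68 and 4.99 in HFD-inulin arrays and 4.64, 4.80 and 4.81 in HFD arrays, which overlap (difference 0.10, SE 0.10). C1ra, a protease of the C1 complex, had 6.35, 6.13 and 6.61 in HFD-inulin arrays, against 6.67, 6.74 and 6.54 in HFD arrays. Its arrays 1 and 2 of HFD-inulin were below all HFD arrays, while array 3 lay among them. The log2 difference was -0.29 (SE 0.13, 95% interval -0.60 to 0.02, unadjusted p = 0.0619 and adjusted p = 0.902 in limma), with -0.43 within the low arrays and -0.04 within the high arrays. Masp1 and Masp2, the proteases bound to mannose-binding lectins, differed by 0.01 (SE 0.09) and -0.11 (SE 0.10). The values per array of Fcna, C2, C4b, C6, C8a, C8b, C8g, F10 and Pros1 were chosen for printing after they were seen.

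C2 and C4b encode the subunits of the classical C3 convertase. C2 had 4.98, 4.99 and 5.39 in HFD-inulin arrays, against 5.37, 5.38 and 5.42 in HFD arrays. As with C1ra, HFD-inulin arrays 1 and 2 were low and array 3 was within the HFD range. Its log2 difference was -0.27 (SE 0.12, 95% interval -0.56 to 0.02, unadjusted p = 0.061 and adjusted p = 0.902 in limma), with -0.39 within the low arrays and -0.01 within the high arrays. A second, dimmer probe set of C2 differed by 0.11, the opposite sign. C4b had 8.78, 9.09 and 8.66 in HFD-inulin arrays and 8.99, 9.24 and 8.75 in HFD arrays, a difference of -0.15 (SE 0.16) with overlapping groups. Whether probes of C4b also bind its near-identical copy C4a was not checked, nor was it for C1ra and C1rb or for Kng1 and Kng2. Cfb, the protease of the alternative convertase, had 8.93, 9.13 and 8.94 in HFD-inulin arrays, against 8.87, 9.04 and 8.81 in HFD arrays. The groups overlapped and the difference was 0.09 (SE 0.09, 95% interval -0.13 to 0.31), so a change of Cfb beyond that interval was not seen at 3 arrays per group.

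Several terminal genes shared an order of arrays that did not follow the groups. Hc, which encodes C5, had 8.51, 8.53 and 8.44 in HFD-inulin arrays, against 8.55, 9.03 and 8.42 in HFD arrays. HFD array 2 alone stood high, and the difference was -0.17 (SE 0.16, adjusted p = 0.922 in limma). C9, the pore-forming protein, had 7.45, 7.27 and 6.98 in HFD-inulin arrays, against 6.88, 7.82 and 6.68 in HFD arrays. Again HFD array 2 was the highest, and the groups overlapped with a difference of 0.11 (SE 0.30, 95% interval -0.61 to 0.82). C8a and C8b encode the alpha and beta chains of C8. C8a had 8.47, 8.70 and 7.73 in HFD-inulin arrays, against 7.97, 8.59 and 7.93 in HFD arrays. C8b had 7.54, 7.79 and 6.78 in HFD-inulin arrays, against 7.05, 7.69 and 6.83 in HFD arrays. C6, which binds the first terminal complex, had 5.94, 5.55 and 4.57 in HFD-inulin arrays, against 4.97, 5.62 and 4.75 in HFD arrays. In C8a, C8b and C6, HFD-inulin arrays 1 and 2 and HFD array 2 were the 3 highest, and HFD-inulin array 3 was the lowest. Their differences were 0.13 (SE 0.29), 0.18 (SE 0.31) and 0.24 (SE 0.38). Within the low arrays, C6, C8a, C8b and C9 were 0.77, 0.61, 0.61 and 0.48 higher in HFD-inulin, and within the high arrays their differences were -0.62, -0.53, -0.48 and -0.27. C8g, the gamma chain of C8, did not share this pattern: it had 7.21, 6.91 and 7.30 in HFD-inulin arrays, against 7.29, 7.38 and 7.37 in HFD arrays (difference -0.21, SE 0.11, adjusted p = 0.902 in limma). C7 averaged 1.44 ± 0.12 in HFD-inulin livers and 1.37 ± 0.05 in HFD livers (SD, n = 3 each), close to the median of all probe sets, where signal over background is little, and its difference was 0.07.

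**Figure D3:**
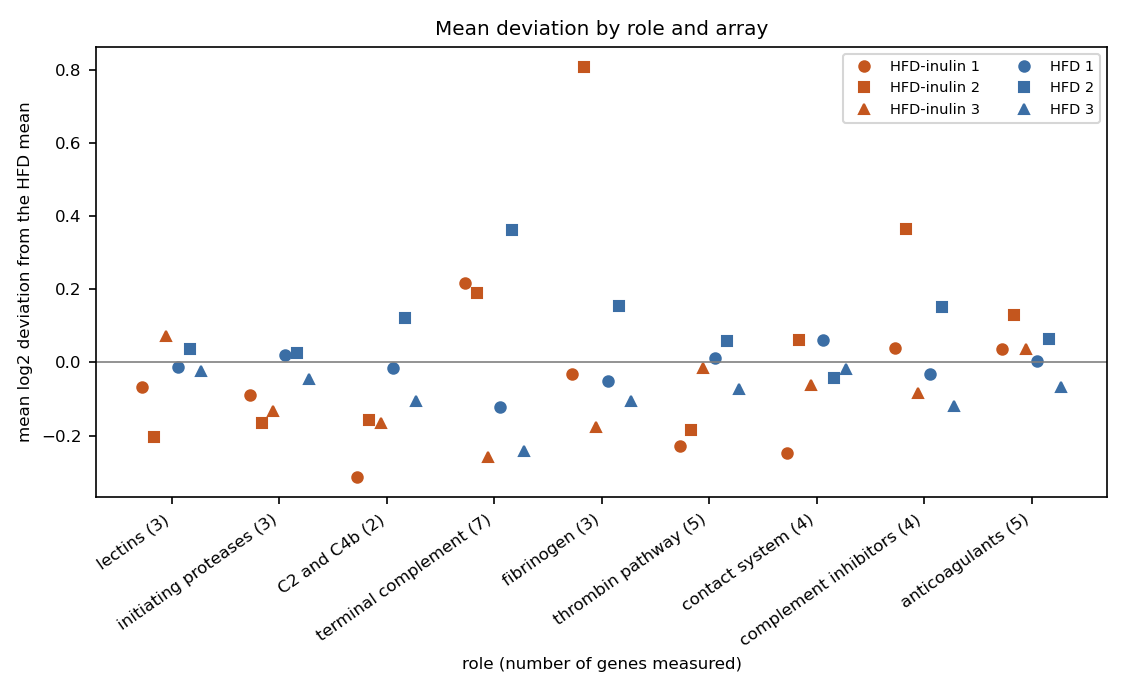
Mean log2 deviation from the HFD mean, over the genes of a role, for each array (orange, HFD-inulin; blue, HFD; symbols give the array number). The fibrinogen mean of HFD-inulin array 2, 0.81, stands apart, and the terminal complement genes are high in HFD-inulin arrays 1 and 2 and in HFD array 2.

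Among the clotting genes the 3 fibrinogen chains were high together in 1 array. Fga, Fgb and Fgg encode the alpha, beta and gamma chains of fibrinogen and lie next to each other on chromosome 3. Their upstream sequences are shown because the same array stood apart in all 3. They are the 250 bases before the RefSeq start in build GRCm38.p6, 5′ to 3′ on the gene's strand. Capitals mark matches, on either strand, to the letters CTGGGAA (core of an interleukin-6 response element), TTGCNNAA (like a C/EBP site) and GTTAAT (part of an HNF1 site).
Fga (chr3:83025903-83026152, + strand): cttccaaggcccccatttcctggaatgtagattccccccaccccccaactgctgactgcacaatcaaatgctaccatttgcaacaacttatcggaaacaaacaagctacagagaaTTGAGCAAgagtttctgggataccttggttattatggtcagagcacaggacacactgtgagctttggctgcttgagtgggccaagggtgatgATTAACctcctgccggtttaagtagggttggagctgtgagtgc
Fgb (chr3:83049864-83050113, - strand): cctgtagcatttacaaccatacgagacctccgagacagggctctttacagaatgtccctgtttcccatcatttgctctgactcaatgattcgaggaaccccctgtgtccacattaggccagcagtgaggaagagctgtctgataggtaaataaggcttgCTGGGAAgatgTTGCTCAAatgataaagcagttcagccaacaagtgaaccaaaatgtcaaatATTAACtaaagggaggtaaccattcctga
Fgg (chr3:83007474-83007723, + strand): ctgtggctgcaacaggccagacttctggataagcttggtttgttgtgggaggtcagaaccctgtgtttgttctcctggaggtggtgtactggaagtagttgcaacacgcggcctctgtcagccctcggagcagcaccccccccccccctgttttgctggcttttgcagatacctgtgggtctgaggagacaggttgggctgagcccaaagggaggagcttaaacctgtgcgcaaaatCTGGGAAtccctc
The C/EBP-like letters lie 135 to 128 bases before the start of Fga, as the reverse complement, and 80 to 73 bases before that of Fgb. The interleukin-6 core lies 91 to 85 bases before the start of Fgb and 13 to 7 bases before that of Fgg, and the HNF1 letters lie 43 to 38 bases before that of Fga and 29 to 24 bases before that of Fgb. A RefSeq window was at hand for 30 of the 40 genes. The interleukin-6 core occurred in 7 of these 30 (23.3%), against 9.1% of the windows of all 32851 starts. The C/EBP-like letters occurred in 6 (20%), against 9.56%, and the HNF1 letters in 10 (33.3%), against 6.43%. A gene was counted when any of its starts matched, while the share over all starts counts each start singly. The shares are therefore not in the same unit, and no enrichment is read from them. The matches are of letters, not sites shown to be bound.

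Fga had log2 signals of 10.16, 11.10 and 9.92 in HFD-inulin arrays, against 10.12, 10.33 and 10.06 in HFD arrays. Fgb had 10.47, 11.28 and 10.41 in HFD-inulin arrays, against 10.48, 10.73 and 10.45 in HFD arrays. Fgg had 10.50, 11.27 and 10.38 in HFD-inulin arrays, against 10.49, 10.64 and 10.41 in HFD arrays. In all 3 genes HFD-inulin array 2 was the highest of the 6 and HFD-inulin array 3 the lowest, so the groups overlapped. Array 2 lay 0.93, 0.73 and 0.76 above the HFD mean. The group differences were 0.23 (SE 0.29) for Fga, 0.17 (SE 0.24) for Fgb and 0.21 (SE 0.23) for Fgg, with adjusted p from 0.933 to 0.949 in limma. Without HFD-inulin array 2 they turned to -0.12, -0.12 and -0.07. They differed in sign between the array sets too, at 0.51, 0.40 and 0.40 within the low arrays and -0.27, -0.19 and -0.14 within the high arrays.

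F5 and F10 came nearest to a group difference among the 14 measured clotting genes. F5 encodes factor V, the cofactor with which factor Xa makes thrombin. It had 8.05, 7.96 and 8.62 in HFD-inulin arrays, against 8.61, 8.66 and 8.63 in HFD arrays. HFD-inulin arrays 1 and 2 were below every HFD array and array 3 was inside their range. Its log2 difference was -0.42 (SE 0.17, 95% interval -0.83 to -0.02), a fold of 0.745, with unadjusted p = 0.0428 and adjusted p = 0.902 in limma. Within the low arrays the difference was -0.60 and within the high arrays -0.03, and it was -0.32 with the array set as a block. F10, the gene of factor X, had 6.43, 6.41 and 6.46 in HFD-inulin arrays, against 6.55, 6.53 and 6.54 in HFD arrays. Of the 40 genes, 1 had groups that did not overlap, and this was F10, against 4.32% of all probe sets that were apart with HFD-inulin higher and 6.02% with HFD-inulin lower. The difference was small, -0.11 (SE 0.06, 95% interval -0.24 to 0.03, adjusted p = 0.902 in limma; exact permutation p = 0.1, two-sided), and it stood at -0.13 and -0.08 within the low and high arrays.

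The other measured clotting genes overlapped between the groups. F2, which encodes prothrombin, had 9.14, 9.23 and 9.33 in HFD-inulin arrays, against 9.30, 9.28 and 9.16 in HFD arrays, a difference of -0.02 (SE 0.08, 95% interval -0.20 to 0.17). F7, which starts clotting with tissue factor, had 6.34, 6.43 and 6.83 in HFD-inulin arrays, against 6.63, 6.91 and 6.61 in HFD arrays (difference -0.18, SE 0.15). F11, a protease of the contact pathway, had 4.85, 5.44 and 5.20 in HFD-inulin arrays, against 5.50, 5.13 and 5.49 in HFD arrays (difference -0.21, SE 0.17). All 3 ranges overlapped. F13b, the carrier chain of the clot-crosslinking factor XIII, had 7.05, 6.59 and 7.44 in HFD-inulin arrays, against 7.39, 7.33 and 7.32 in HFD arrays. HFD-inulin arrays 1 and 2 were below every HFD array and array 3 was the highest of all. The difference was -0.32 (SE 0.20, adjusted p = 0.902 in limma). It was -0.56 within the low arrays and 0.12 within the high arrays. Plg, the precursor of plasmin, had 9.93, 10.21 and 9.97 in HFD-inulin arrays, against 9.97, 10.11 and 9.92 in HFD arrays, a difference of 0.04 (SE 0.10). F9, F12, Kng1 and Kng2, which encode factor IX, factor XII and the kininogens, differed by 0.02, -0.15, -0.00 and 0.03 (SE 0.12, 0.09, 0.10 and 0.13).

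**Figure D4:**
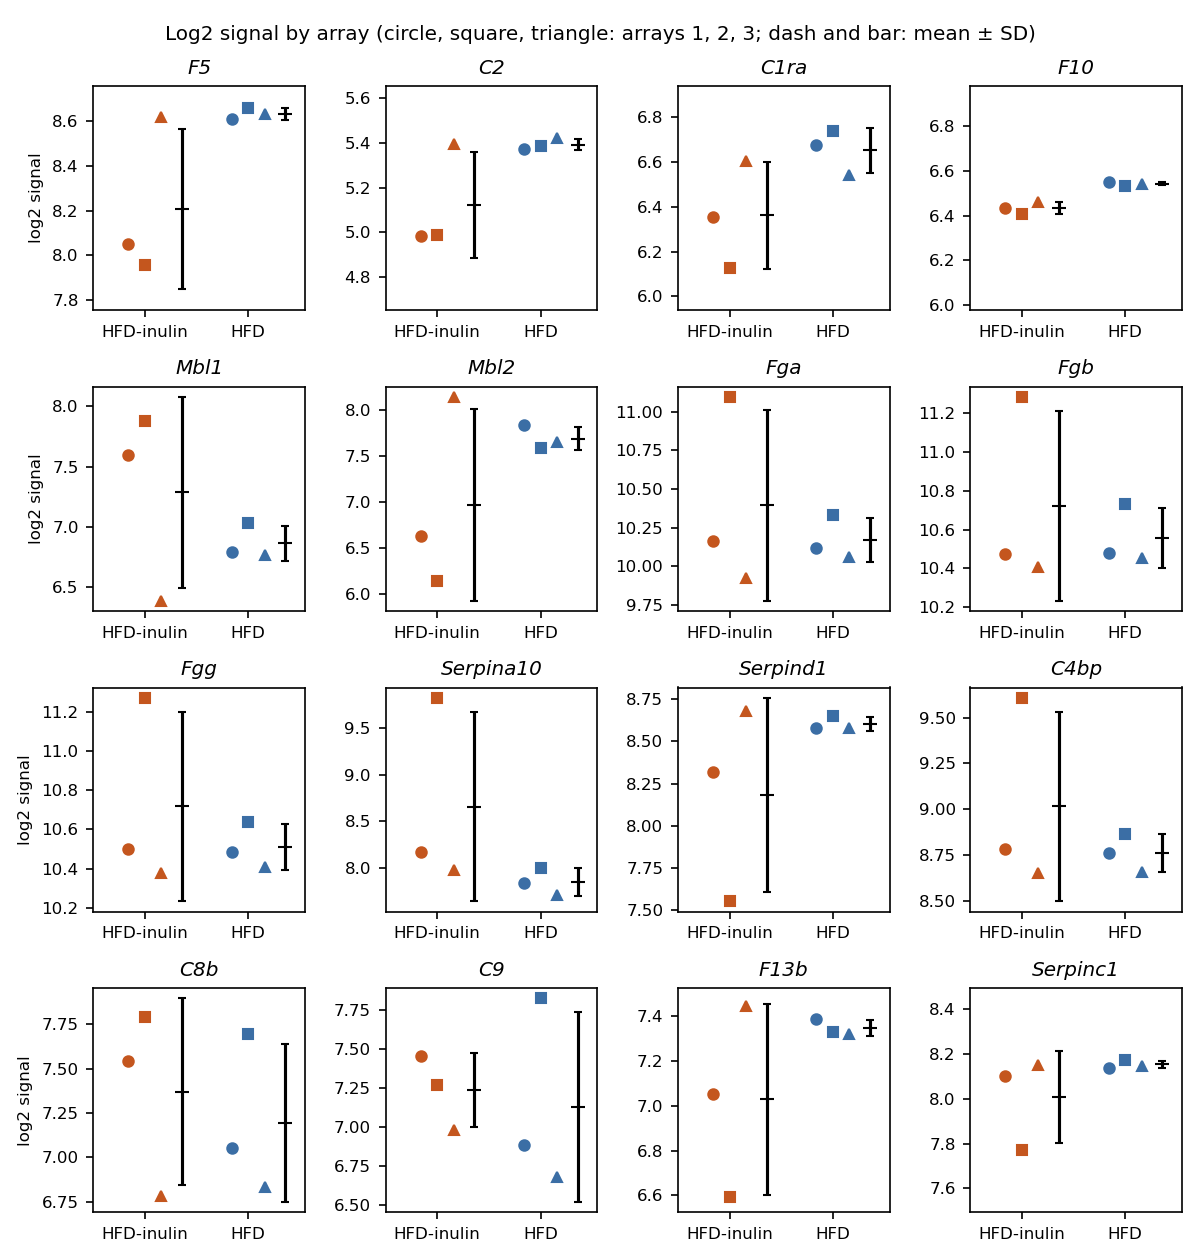
Log2 signal of 16 genes in each array (orange, HFD-inulin; blue, HFD; circle, square and triangle for arrays 1, 2 and 3), with the mean ± SD of 3 arrays beside each group. In F5, C2 and C1ra, HFD-inulin arrays 1 and 2 lie below the HFD arrays, and in Fga, Fgb, Fgg, C4bp and Serpina10 HFD-inulin array 2 lies above all others.

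The inhibitor genes held the largest difference of the 40, and it rested mostly on 1 array. Serpina10 encodes the protein Z-dependent protease inhibitor, which blocks factor Xa. It had 8.17, 9.83 and 7.98 in HFD-inulin arrays, against 7.84, 8.00 and 7.71 in HFD arrays. HFD-inulin array 2 stood 1.98 above the HFD mean, while array 3 lay inside the HFD range. The log2 difference was 0.81 (SE 0.47, 95% interval -0.30 to 1.92), a fold of 1.75, with adjusted p = 0.902 in limma, and it was 0.22 without array 2. It was 1.16 within the low arrays and 0.12 within the high arrays. Serpind1, heparin cofactor II, which inhibits thrombin, was lowest in the same array and also below every HFD array in HFD-inulin array 1. It had 8.32, 7.55 and 8.68 in HFD-inulin arrays, against 8.58, 8.65 and 8.58 in HFD arrays, a difference of -0.42 (SE 0.26, adjusted p = 0.902 in limma), and of -0.10 without array 2. Within the low arrays it was -0.64 and within the high arrays 0.06. Serpinc1, antithrombin, had 8.10, 7.77 and 8.15 in HFD-inulin arrays, against 8.14, 8.17 and 8.15 in HFD arrays (difference -0.14, SE 0.11). Proc, protein C, which inactivates factor V, had 8.64, 8.32 and 8.71 in HFD-inulin arrays, against 8.65, 8.75 and 8.67 in HFD arrays (difference -0.13, SE 0.11). Both were lowest in HFD-inulin array 2. Pros1, the cofactor protein S, had 5.59, 5.81 and 5.30 in HFD-inulin arrays, against 5.45, 5.38 and 5.20 in HFD arrays. HFD-inulin arrays 1 and 2 were above every HFD array, and the difference was 0.22 (SE 0.14, adjusted p = 0.902 in limma). Serpinf2, which inhibits plasmin, differed by 0.06 (SE 0.12).

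Of the complement inhibitors, C4bp was high in the same array as the fibrinogen genes. C4bp, whose protein binds C4b, had 8.78, 9.61 and 8.65 in HFD-inulin arrays, against 8.76, 8.87 and 8.66 in HFD arrays. HFD-inulin array 2 was the highest and array 3 the lowest of the 6. The difference was 0.25 (SE 0.24, 95% interval -0.33 to 0.84, adjusted p = 0.924 in limma), and -0.04 without array 2. Within the low and high arrays it was 0.44 and -0.11. Cfi, the protease that cuts C3b and C4b, differed by -0.07 (SE 0.09). Serping1, the C1 inhibitor, and Vtn, vitronectin, which blocks the terminal complex, differed by 0.08 (SE 0.14) and 0.17 (SE 0.14).

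Leaving out HFD-inulin array 2 or 3 moved these values the most among the single arrays, by the count of genes at an unadjusted p under 0.05 or by the number of signs that turned. Without HFD-inulin array 2, the difference changed sign for 12 of the 40 genes and became smaller in size for 30. At an unadjusted p under 0.05, 0 of 40 were then left, against a background of 3.92%. Without HFD-inulin array 3, 11 of 40 (27.5%) reached it, 3 higher and 8 lower in HFD-inulin, against a background of 9.89%, and still none had an adjusted p under 0.05. The 3 higher ones were Mbl1 at 0.87, Pros1 at 0.36 and Serpina10 at 1.15. The lower ones were Mbl2 at -1.30, F5 at -0.63, Serpind1 at -0.67, F13b at -0.52, C2 and C1ra at -0.41 each, F7 at -0.33 and C8g at -0.29. With the array set as a block, 0 of 40 reached it, against 5.19% of all probe sets. Within the low arrays 9 of 40 did (22.5%), 5 higher and 4 lower, against 5.64%, and within the high arrays 2 of 40 did (5%), against 6.58%. Within the high arrays 23 of the 40 differences had the opposite sign to that over all 6 arrays, and within the low arrays 1 did. Those 2 were Mbl1 and Mbl2, each in the direction opposite to that within the low arrays.

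**Figure D5:**
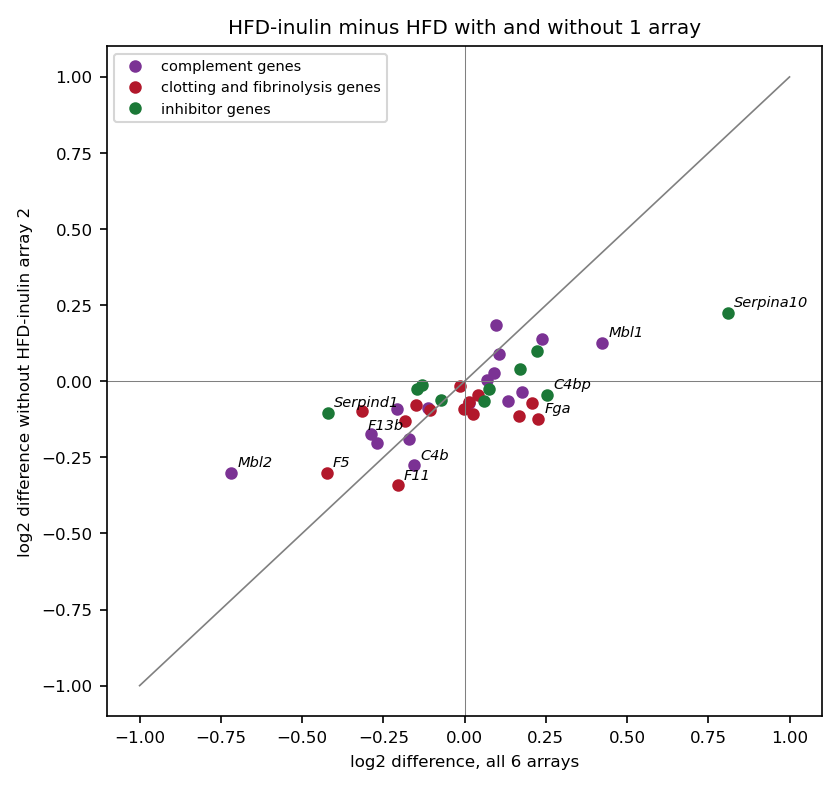
Log2 difference, HFD-inulin minus HFD, with all 6 arrays (horizontal) and without HFD-inulin array 2 (vertical), 1 point per gene, coloured by kind, with the line of equal values. Serpina10, Mbl1 and Mbl2 lie nearer to 0 without that array, and Fga and C4bp cross to the other side of 0.

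None of the other genes of these pathways passed the adjusted test either. On a wider list of complement and coagulation genes, 35 of 39 were measured, 13 higher and 22 lower in HFD-inulin. At an unadjusted p under 0.05, 2 were lower and 0 higher (5.71%, against 5.15% of all probe sets). The groups did not overlap for 4 of the 35 with HFD-inulin lower (C1qa, Cd59a, Colec10 and F8, of which Cd59a is named after its values were seen), against 6.02% of all probe sets. F8, the cofactor of factor IX, had 4.52, 4.28 and 4.72 in HFD-inulin arrays, against 5.16, 4.84 and 4.81 in HFD arrays. Its groups did not overlap, and the difference was -0.43 (SE 0.14, adjusted p = 0.902 in limma). Hgfac, a protease related to factor XII, had 6.68, 6.30 and 7.23 in HFD-inulin arrays, against 7.43, 7.17 and 7.32 in HFD arrays, a difference of -0.57. Of the 10 measured genes of factors and receptors that control these genes in hepatocytes, 6 were higher and 4 lower. Hnf4a, a nuclear receptor of the hepatocyte, had 6.86, 6.86 and 6.77 in HFD-inulin arrays, against 7.38, 7.46 and 7.44 in HFD arrays. Its groups did not overlap, and the difference was -0.60 (SE 0.06, adjusted p = 0.390 in limma). Il6ra, the receptor chain for interleukin-6, had 4.11, 4.45 and 4.89 in HFD-inulin arrays, against 5.35, 5.36 and 4.89 in HFD arrays (difference -0.72, SE 0.22, unadjusted p = 0.0152). These were the only 2 of the 10 regulators at an unadjusted p under 0.05, both lower in HFD-inulin, against 2.64% of all probe sets. Next by p came the complement receptors and regulators Cr1l, Cd55 and Cfp, the lectin gene Colec10, the C1q chain gene C1qa and the bile acid receptor gene Nr1h4, with differences of 0.21, -0.20, -0.24, -0.33, -0.14 and 0.20.

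Marker lists were read beside these values. The hepatocyte markers averaged log2 signals of 9.44, 9.42 and 9.54 in HFD-inulin arrays, against 9.68, 9.69 and 9.65 in HFD arrays. The markers of the labelled tissue were thus present in every array, with every HFD-inulin mean below every HFD mean. Of the 7 measured, 2 were higher and 5 lower in HFD-inulin, and 3 of the lower ones (Apob, Hnf4a and Cps1) had an unadjusted p under 0.05, against 2.64% of all probe sets. The 8 Kupffer cell markers, 2 higher and 6 lower, averaged 4.96, 4.86 and 5.03 in HFD-inulin arrays, against 4.999, 5.16 and 5.18 in HFD arrays, so the groups overlapped. Of the lower markers 2 (Adgre1 and Timd4) had an unadjusted p under 0.05, against the same 2.64%. The 8 neutrophil markers, 4 higher and 4 lower, of which 3 lay below the median of all probe sets, averaged 1.34, 1.72 and 1.33 in HFD-inulin arrays, against 1.41, 1.27 and 1.30 in HFD arrays. S100a8, a neutrophil gene picked after its values were seen, had 0.61, 2.33 and 0.91 in HFD-inulin arrays, against 0.82, 0.54 and 0.50 in HFD arrays, so it was highest in HFD-inulin array 2, in which the fibrinogen genes were highest too. In that array S100a9 and Retnlg, at 2.34 and 1.37, were also above every HFD array. Ly6g, Ngp, Mpo, Camp and Elane differed there from the HFD mean by 0.09, -0.17, -0.03, -0.01 and -0.01. S100a8, Retnlg and Ngp are the 3 neutrophil markers below the median of all probe sets. The other lists, for sinusoidal endothelium, stellate cells, lymphocytes, platelets and bile duct cells, had 1 of 8, 3 of 7, 1 of 6, 0 of 5 and 3 of 5 measured markers higher in HFD-inulin. On these lists 1 endothelial marker, Stab2, lower, had an unadjusted p under 0.05, against the same 2.64%. The markers named singly were chosen after their values were seen. The part of these markers in the results was not tested. No marker on any of the 8 lists had an adjusted p under 0.05.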

How the data were processed

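The authors deposited log2 signals for 65956 probe sets, for which the submitters' processing notes name Affymetrix Expression Console 1.0. How probes were summarized, background-corrected and filtered is not given in the sources used here. That the scale is log2 was inferred from the range of the values. Without scanner files, slide and scan were not tested as batches. The deposited array medians were 1.20, 1.17 and 1.25 in HFD-inulin and 1.20, 1.25 and 1.26 in HFD.

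Gene names came from the platform annotation, updated through RefSeq (GRCm38.p6), and 31362 probe sets carried 1 gene. HFD-inulin was compared with HFD in limma 3.58.1 (R 4.3.3) over all probe sets and 6 arrays, without covariates, with Benjamini-Hochberg adjustment. The fit was tested on simulated data with known answers, at an adjusted p under 0.05. It found 13 of 50 planted log2 changes of 0.5 and 35 of 50 of 1. Of changes of 2 and 3 it found 47 of 50 and 45 of 50, and 8 calls in all were false. The simulated noise was normal, with the same SD in both groups, and the changes were planted in probe sets drawn at random. The median log2 signal was 1.22 over all probe sets and 8.24 over the 40 genes, whose median SD was 0.24 in HFD-inulin and 0.11 in HFD. The shares found therefore cannot be carried over to these genes. The genes and lists were chosen with earlier results of these data known. Every measured gene is named. Values per array are given for genes at unadjusted p under 0.05, the 3 largest differences of each kind and set anchors, and for others chosen after their values were seen. Up to 10 genes of the wider and regulator lists, those with the smallest p, could be named.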

Additional observations from a re-analysis of the deposited data

How the results depend on the processing

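No gene of the 40 had an adjusted p under 0.05 under any alternative run, including quantile normalization, median centring, array weights, a filter on dim probe sets, another prior, the array sets and each array left out. Of all 65956 probe sets, 4 had an adjusted p under 0.1, and 4 were called with the trended and robust prior. The median difference of the complement genes was -0.16 within the high arrays and 0.08 within the low arrays. Leaving out 1 array in turn, the medians ran from -0.07 to 0.05 for complement genes, from -0.10 to 0.02 for clotting genes and from -0.03 to 0.17 for inhibitors, each on both sides of 0. Quantile normalization gave -0.06, -0.10 and 0.00, and 5 of the 40 genes at an unadjusted p under 0.05, against 4.67% of all probe sets, and turned the sign of Masp1, C9, F9, Kng2 and Serpinf2. Array weights gave 3 such genes, against 7.46%, and the trended prior and the filter gave 0, against 4.96% and 5.68%. That count for all probe sets ran from 2100 to 6525 on leaving out 1 array, against 3399.

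Replicate numbers did not pair the samples (r of same-numbered deviations 0.26, -0.28 and 0.40), and the fit with the replicate number as a block called 0 of 40 genes, with 1 at an unadjusted p under 0.05. The causes of these shifts were not tested. Dim genes such as C7 are limited by signal over background.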
